A study of Homo sapiens with 10 samples.

Results

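The 48 genes described here are markers of monocyte and neutrophil maturation, followed in 2 human myeloid leukaemia cell lines treated with JOA or with a control. They were taken from a list of surface receptors, pattern recognition receptors, granule proteins, chemoattractant receptors and S100 proteins of mature phagocytes, and were matched to the data by gene symbol. In Kasumi-1, 25 of the 48 had a row that could be matched, among 10802 symbols, and in NB4 transcripts of 45 of the 48 were listed, among 21944 genes. The libraries were Kasumi-1 with JOA (3), Kasumi-1 control (3), NB4 with JOA (2) and NB4 control (2), all from cells treated for 48 hours, with JOA at 1 µM. Kasumi-1 is an established line of acute myeloid leukaemia that carries the RUNX1-RUNX1T1 fusion, and NB4 is an established line of acute promyelocytic leukaemia that carries the PML-RARA fusion. JOA is named by its code alone, and what the control treatment contained is not given in the sources used here. One label of the NB4 treated libraries names the agent I13, while their titles and agent labels name JOA, and they are called JOA here. Each line is a single leukaemia clone grown in culture, and nothing states that the libraries of a group came from separate cultures, so each p-value reflects the spread of these libraries alone, and that spread may be technical.

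Leukaemias of this kind are held at an immature myeloid stage. Normal myeloid progenitors first fill primary granules with enzymes such as myeloperoxidase, then make the proteins of specific and gelatinase granules, and display the integrin chains CD11b (ITGAM) and CD11c (ITGAX) and receptors for microbes as they mature. The monocyte branch adds scavenger receptors and the lipopolysaccharide co-receptor CD14, and the neutrophil branch adds receptors for chemoattractants and the enzyme PADI4, which citrullinates histones. In NB4, retinoic acid is known to release this block, and CD11b on the surface is a common readout of it.

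Levels in Kasumi-1 are FPKM, fragments scaled to transcript length and library size, summing to 265821 to 277628 per library, with 16245952 to 17781486 reads recovered per library. The levels of NB4 are TPM, transcript shares scaled to a fixed sum, whose depth is unknown. Each table has its own normalisation, and no level of a listed maturation marker is set against a level of the other line. RUNX1T1, a partner of the Kasumi-1 fusion, stood at 17.1 to 20.2 FPKM in the 6 Kasumi-1 libraries and at no more than 0.0159 TPM in NB4. Myeloperoxidase was the most abundant of the line markers in both lines. Differences were tested with limma on log2(value + 1), with p-values adjusted over all features tested in a line and a call made at an adjusted p under 0.05. Because of the added 1, changes of genes near or under 1 come out smaller than their ratio.

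Mature markers were measured far less completely in Kasumi-1 than in NB4. A gene was tested in a line if it reached 1 FPKM or TPM in at least as many libraries as a group held, and 7 of the 48 markers met this in Kasumi-1 and 24 in NB4. The 7 tested in Kasumi-1 were CD93, CD4, SIRPA, TLR4, CLEC4E, LYZ and S100A9, and each of them was also tested in NB4. A further 18 had a Kasumi-1 row that did not meet it, and 23, among them CD14, CD36, FCN1, MNDA and S100A8, are not analysed here in Kasumi-1, since no row could be paired with their symbol. In NB4, 20 markers did not meet it, LCN2 (lipocalin 2) was listed at 0 in all 4 libraries, and CXCR1, S100A12 and OLFM4 are not analysed here. A low Kasumi-1 row does not show that the gene itself was low, because only 37.5% of the rows could be paired with a symbol.

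**Figure D1:**
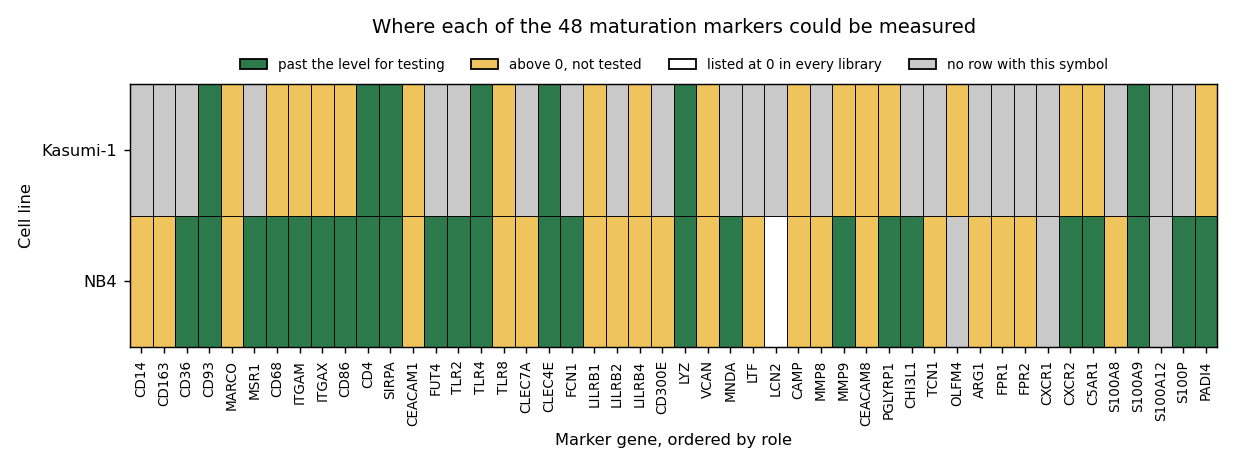
Each column is 1 of the 48 markers in the order of their roles, and each row is a cell line; the colour gives whether the marker was tested, was above 0 but too low to test, was listed at 0, or had no row with its symbol. The 7 green cells of Kasumi-1 stand over green cells of NB4, and NB4 has 24 green cells in all.

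The markers not tested differed by role, and those without a matched row are counted apart from those too low to test. Of the 11 specific and gelatinase granule proteins, 3 were tested in NB4, namely MMP9, PGLYRP1 and CHI3L1. In NB4, 6 more were too low, 1 was at 0 and 1 had no row. In Kasumi-1, 0 of the 11 were tested, 5 were too low and 6 had no row. LTF (lactoferrin), a defining protein of specific granules, was listed at 0.0541 TPM in NB4 JOA 2 and at 0 in the other NB4 libraries. The 4 inhibitory or activating receptors of the LILRB and CD300 group were tested in neither line, and 2 of them had no Kasumi-1 row. Reads of these receptors and of the CEACAM genes may be split with close paralogs. CD14 was at 0.913 and 0.731 TPM in NB4 with JOA, against 0.457 and 0.386 TPM in NB4 control, so every JOA library was above every control library but all 4 were under 1 TPM. FPR1, a receptor for formylated bacterial peptides, was at 0.619 and 0.362 TPM with JOA, against 0.0296 and 0.181 TPM in control. LILRB4 lay the other way, at 0 TPM in both JOA libraries, against 0.248 and 0.0899 TPM in control. Of all tested NB4 genes, 32.5% lay higher in every JOA library and 11% lower. In NB4, 4 markers not tested passed 1 TPM in a single JOA library and in no control library: TCN1, ARG1, FPR2 and S100A8. How many of all genes did so was not counted, so no shift is read from these 4. None is read from CD14, FPR1 or LILRB4 either, since genes too low to test were not counted. Most of the ARG1 level in JOA 2 (1.88 TPM) came from processed transcripts, and most of TCN1 in JOA 1 (0.951 TPM) from a retained intron. FPR2 and S100A8 came from coding transcripts.

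In Kasumi-1 the reads behind the markers not tested were few. ITGAM, which encodes CD11b, rested on 17, 15 and 8 reads with JOA, against 14, 11 and 6 reads in control. ITGAX, which encodes CD11c, had 26, 8 and 21 reads with JOA, against 6, 12 and 10 reads in control, with overlap between the groups. CXCR2, a chemokine receptor of neutrophils, had 52, 49 and 38 reads with JOA, against 66, 40 and 46 reads in control. These ranges overlap. A row matched to MMP9, CAMP, CEACAM8, MARCO or TLR8 was above 0 in 1 of the 6 libraries, at no more than 0.0808 FPKM. With a single library above 0 the number of reads behind these rows cannot be recovered, since 1 read is only the smallest possible count. CD68, a lysosomal protein of monocytes and macrophages, held 0, 0 and 1 reads with JOA, against 0, 0 and 2 reads in control.

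The pattern recognition receptors hold the largest change in Kasumi-1 (CLEC4E) and the lowest marker p in NB4 (FCN1), and the stretch upstream of the gene start is shown for the 4 of them that were tested in NB4. TLR2 and TLR4 sense bacterial lipoproteins and lipopolysaccharide, CLEC4E (Mincle) senses glycolipids of mycobacteria and of damaged cells, and FCN1 encodes ficolin 1, a secreted lectin of monocytes. Each sequence is 250 bases ending at the base before the gene start, read 5′ to 3′ on the strand of the gene, from RefSeq on GRCh38.p14. The windows are TLR2 at chr4:153684030-153684279 on the plus strand, TLR4 at chr9:117704153-117704402 on the plus strand, CLEC4E at chr12:8540906-8541155 on the minus strand and FCN1 at chr9:134917913-134918162 on the minus strand. Capitals mark GAGGAA, or TTCCTC where it lies on the opposite strand, a core of many sites bound by the myeloid factor PU.1.
TLR2: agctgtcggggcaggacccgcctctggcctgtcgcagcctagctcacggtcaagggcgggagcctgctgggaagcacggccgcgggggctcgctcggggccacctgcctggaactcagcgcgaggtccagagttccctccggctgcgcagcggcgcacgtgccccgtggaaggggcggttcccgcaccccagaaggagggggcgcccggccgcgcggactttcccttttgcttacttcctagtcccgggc
TLR4: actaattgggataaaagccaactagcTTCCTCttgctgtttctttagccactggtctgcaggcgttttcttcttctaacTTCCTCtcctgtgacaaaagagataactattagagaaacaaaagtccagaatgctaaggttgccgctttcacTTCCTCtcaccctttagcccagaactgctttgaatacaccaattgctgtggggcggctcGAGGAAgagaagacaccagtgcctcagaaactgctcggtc
CLEC4E: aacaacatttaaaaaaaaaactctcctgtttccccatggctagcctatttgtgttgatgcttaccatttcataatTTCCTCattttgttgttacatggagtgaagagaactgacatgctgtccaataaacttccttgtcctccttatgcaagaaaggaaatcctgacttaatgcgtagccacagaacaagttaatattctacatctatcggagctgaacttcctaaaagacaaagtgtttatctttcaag
FCN1: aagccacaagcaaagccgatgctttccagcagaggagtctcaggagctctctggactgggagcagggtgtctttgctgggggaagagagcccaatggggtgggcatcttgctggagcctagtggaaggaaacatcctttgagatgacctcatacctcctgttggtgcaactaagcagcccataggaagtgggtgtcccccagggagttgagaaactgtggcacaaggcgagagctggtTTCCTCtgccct
The core was present in the TLR4 window starting at positions -224, -171, -99 and -40 relative to the gene start, in the CLEC4E window at -175 and in the FCN1 window at -12, with no match in the TLR2 window. The core stood in 23.4% of 27305 promoters of this length, and in 18 of the 38 marker promoters that could be matched. TATAAA on the strand of the gene stood in 7.2% of all promoters and in 7 of the 38, and in none of the 4 shown. A match is a description of these letters and not a measurement of binding.

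In Kasumi-1, CLEC4E was the marker with the largest difference, and it was lower with JOA. Its level was 1.64, 0.804 and 1.12 FPKM with JOA, against 4.13, 2.05 and 4.25 FPKM in control. Every JOA library lay under every control library. The reads behind these values were 66, 33 and 45 with JOA, against 181, 87 and 170 in control. Means were 1.19 ± 0.422 FPKM with JOA and 3.48 ± 1.23 FPKM in control (SD, n = 3 each), a ratio of 0.342. The log2 change was -1.01 (SE 0.24) with an unadjusted p of 0.00399 in limma, and an adjusted p of 0.149 over 12101 features did not pass the threshold. Whether fewer cells carried the transcript or each cell carried less of it cannot be told apart in bulk RNA.

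No Kasumi-1 feature at all was called in the unpaired fit, where the lowest adjusted p was 0.116, while 1982 features had an unadjusted p under 0.05. Paired fits gave another picture. Libraries with the same number deviated together, so the number was also used as a block. In the block fit by limma, 8.14% of the features were called, and of the 7 tested markers CLEC4E (adjusted p = 0.0290) and CD93 (adjusted p = 0.0497) were among them. CLEC4E differed by -0.96, -0.76 and -1.31 on the log2 scale in the pairs 1, 2 and 3. Leaving out any pair raised its adjusted p in the block fit to between 0.0765 and 0.110, and no feature was then called. On the recovered reads, limma's voom with the block gave CLEC4E a log2 change of -1.53 (adjusted p = 1.96e-07), in a fit that called 25.1% of all features, and without the block voom called none (adjusted p = 0.126 for CLEC4E).

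CD93, a surface receptor of monocytes and progenitors, showed a small difference of the opposite sign. Its level was 14.4, 16.3 and 12.2 FPKM with JOA, against 12.7, 14.2 and 10.3 FPKM in control. The groups overlapped, while the JOA library was the higher in each of the 3 pairs, by 0.17, 0.18 and 0.22 on the log2 scale. The log2 change was 0.19 (SE 0.14) with an adjusted p of 0.520 in the unpaired limma fit, and the block SE was 0.04. Leaving out any pair gave adjusted p-values of 0.128 to 0.173 in the block fit.

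Among the integrins and other surface markers, SIRPA and CD4 were tested in Kasumi-1, and the integrin chains ITGAM and ITGAX were not. SIRPA is the receptor on phagocytes for the signal CD47, and human monocytes as well as helper T cells carry CD4. SIRPA was at 13.8, 8.01 and 16.3 FPKM with JOA, against 10.2, 7.57 and 12.3 FPKM in control. The groups overlapped, and the JOA library was the higher in every pair. The log2 change was 0.29 (SE 0.26), with an adjusted p of 0.621 in limma, 0.0757 with the block and 2.47e-04 in voom with the block. CD4 was at 24.2, 17.1 and 19.7 FPKM with JOA, against 25.3, 16.0 and 24.0 FPKM in control, with overlap and a log2 change of -0.08 (SE 0.19, adjusted p = 0.858).

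LYZ, which encodes the antibacterial enzyme lysozyme, differed more between library numbers than between treatments. It was at 12.01, 4.31 and 14.5 FPKM with JOA, against 11.7, 4.08 and 12.9 FPKM in control. Library 2 was the lowest of both groups, and the numbers spread over 1.499 on the log2 scale, against a JOA change of 0.09 (SE 0.50, adjusted p = 0.949 in limma). Library 2 was also the lowest of both groups for CD4, SIRPA and CLEC4E, and the highest of both for CD93. Over all features tested, library 2 was lowest in both groups for 16.7% and highest in both for 21.2%. The remaining markers, TLR4 and S100A9, lay between 0.839 and 2.70 FPKM, overlapped between groups and had log2 changes of 0.12 and 0.10.

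**Figure D2:**
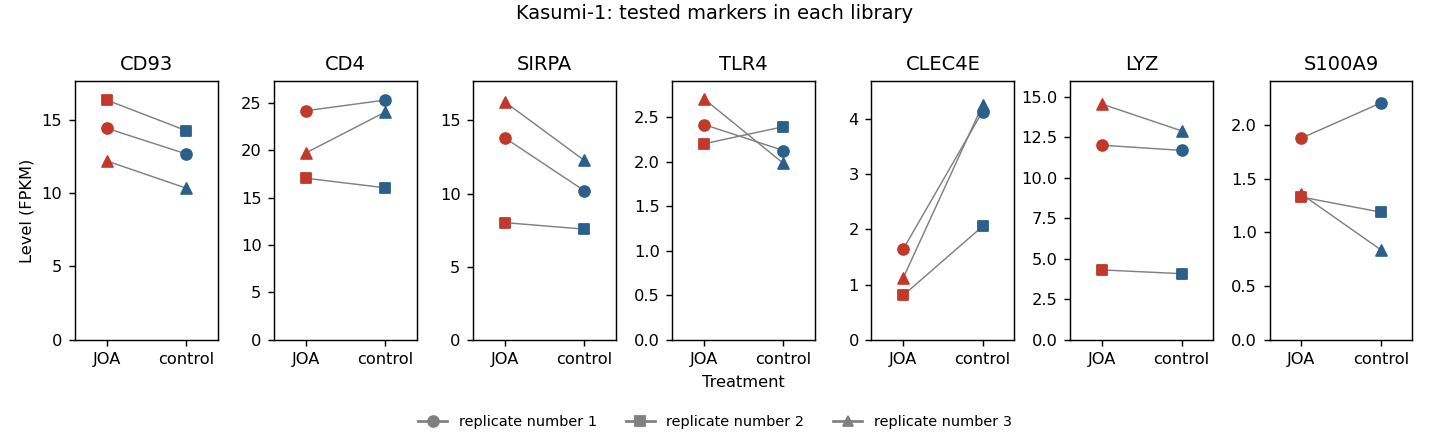
Each panel is 1 of the 7 markers tested in Kasumi-1, with the FPKM of every library on an axis that starts at 0; JOA is on the left, control on the right, symbols give the replicate number and lines join libraries of the same number. CLEC4E is the only panel where all 3 JOA libraries (0.804 to 1.64 FPKM) lie under all 3 control libraries (2.05 to 4.25 FPKM), and the spread by number in LYZ is wider than its difference between treatments.

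The counts of the 7 Kasumi-1 markers were read against those of all features. At an unadjusted p under 0.05, 0 of 7 were higher with JOA, where 11.7% of all features were, and 1 of 7 was lower, where 4.68% of all were. The groups did not overlap for 1 of 7, lower with JOA, where 7.1% of all features lay lower in every JOA library and 16% lay higher. The log2 change was above 0 for 5 of 7, where it was for 61.9% of all features, and the median was 0.10, against 0.05 over all. With median-ratio scaling the share above 0 fell to 47.5% of all features, and was 5 of 7 among the markers.

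In NB4, the markers with the lowest p were all higher with JOA, and none was called. FCN1 led them, at 12.6 and 16.9 TPM with JOA, against 7.32 and 9.29 TPM in control. Both JOA libraries lay above both control libraries. The log2 change was 0.75 (SE 0.20), with an unadjusted p of 0.00621 and an adjusted p of 0.294 over 12932 genes in limma. ITGAM, the CD11b chain of the integrin that binds complement and ICAM proteins, was at 20.2 and 23.2 TPM with JOA, against 12.7 and 15.6 TPM in control. The groups did not overlap, and the log2 change was 0.58 (SE 0.16, unadjusted p = 0.00739, adjusted p = 0.303 in limma). With the variance shared over both lines, ITGAM had an adjusted p of 0.0474 and was the only marker called, in a fit that called 2.15% of the 7261 genes and could not test FCN1, which has no Kasumi-1 row.

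ITGAX lies beside ITGAM on chromosome 16 and gave the same direction. It was at 3.58 and 7.04 TPM with JOA, against 2.59 and 2.75 TPM in control. JOA 2 was well above the other libraries and JOA 1 above both controls, with a log2 change of 0.72 (SE 0.29, unadjusted p = 0.0379, adjusted p = 0.442 in limma). The coding transcripts of ITGAX alone overlapped, at 1.66 and 3.71 TPM with JOA, against 1.81 and 1.55 TPM in control. Its transcripts annotated as retained introns did not, at 1.92 and 3.33 TPM with JOA, against 0.783 and 1.20 TPM in control. SIRPA was at 33.7 and 31.5 TPM with JOA, against 25.8 and 27.8 TPM in control, without overlap, and its log2 change of 0.27 (SE 0.12) had an unadjusted p of 0.0600 in limma. CD86, a costimulatory ligand of antigen-presenting cells, lay between 0.850 and 2.26 TPM and was higher in both JOA libraries. CD4 was at 46.0 and 41.5 TPM with JOA, against 43.7 and 46.3 TPM in control, and the groups overlapped. FUT4, the fucosyltransferase that builds the CD15 epitope of granulocytes, was at 24.1 and 22.2 TPM with JOA, against 25.5 and 24.4 TPM in control, which put both JOA libraries lower by a log2 change of -0.10 (SE 0.13).

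Among the surface and scavenger receptors, CD93 was at 10.02 and 12.03 TPM with JOA, against 6.96 and 7.12 TPM in control. The JOA libraries were the higher, with a log2 change of 0.58 (SE 0.17, unadjusted p = 0.0115, adjusted p = 0.336 in limma). CD36, a receptor for oxidised lipids, lay between 0.825 and 2.82 TPM, higher in both JOA libraries (unadjusted p = 0.0460). MSR1, a macrophage scavenger receptor, was at 4.23 and 8.54 TPM with JOA, against 5.55 and 4.99 TPM in control, so 1 JOA library was the lowest and the other the highest of the 4. CD68 was at 11.4 and 9.41 TPM with JOA, against 12.1 and 10.3 TPM in control, and overlapped.

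The other 3 pattern recognition receptors tested were lower in level than FCN1. TLR2, TLR4 and CLEC4E lay between 0.985 and 5.57 TPM, with log2 changes of 0.12, 0.18 and 0.30 and unadjusted p-values of 0.588, 0.379 and 0.295 in limma. CLEC4E was at 1.69 and 2.08 TPM with JOA, against 1.74 and 0.985 TPM in control, with overlap.

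Secreted, nuclear and granule proteins were mixed. MNDA, a nuclear protein of the interferon-inducible HIN-200 family, was at 152 and 161 TPM with JOA, against 141 and 131 TPM in control. These do not overlap, and the log2 change was 0.21 (SE 0.10, unadjusted p = 0.0771 in limma). MMP9, the gelatinase of the granules named for it, was at 138 and 211 TPM with JOA, against 119 and 147 TPM in control; JOA 1 lay between the controls, and the log2 change of 0.37 had an SE of 0.20. LYZ was at 28.6 and 24.9 TPM with JOA, against 24.6 and 29.9 TPM in control, with overlap. CHI3L1, a chitinase-like protein of specific granules, was at 10.9 and 13.1 TPM with JOA, against 15.0 and 16.2 TPM in control, the largest difference towards lower values among the markers tested in NB4 (log2 change -0.36, SE 0.16, unadjusted p = 0.0571 in limma). With median-ratio scaling its unadjusted p was 0.0232. PGLYRP1, a peptidoglycan-binding granule protein, overlapped between 1.83 and 3.41 TPM.

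S100A9, a calcium-binding protein that forms calprotectin with S100A8, was at 3.20 and 4.25 TPM with JOA, against 1.53 and 2.23 TPM in control. Both JOA libraries were the higher (log2 change 0.71, SE 0.25, unadjusted p = 0.0211, adjusted p = 0.388 in limma). S100P was at 9.87 and 19.8 TPM with JOA, against 11.6 and 11.9 TPM in control, so the JOA libraries lay on either side of the controls. PADI4 had the largest log2 change of the tested markers, 0.88 (SE 0.27, unadjusted p = 0.0127, adjusted p = 0.339 in limma), from 2.63 and 4.59 TPM with JOA, against 1.44 and 1.46 TPM in control. CXCR2 and the complement receptor C5AR1 overlapped between 0.495 and 5.34 TPM.

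**Figure D3:**
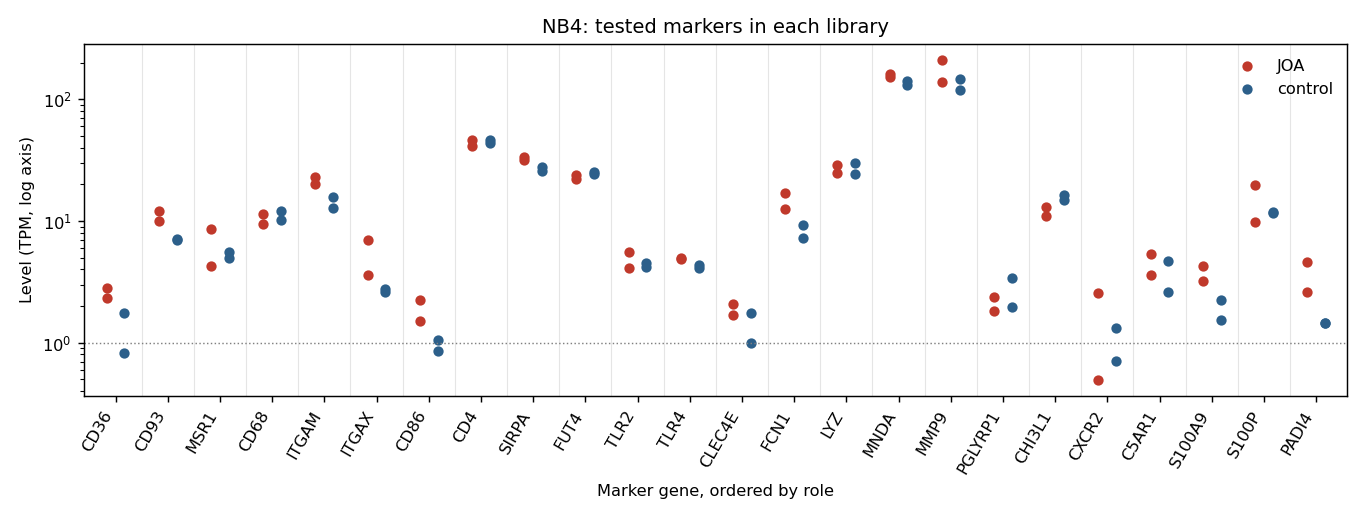
Points give the TPM of every NB4 library on a log axis for the 24 tested markers, ordered by role, with JOA to the left of control; the dotted line is 1 TPM. MNDA and MMP9 are the highest, and FCN1, ITGAM, CD93, S100A9 and PADI4 have both JOA points above both control points.

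Counted over the 24 tested NB4 markers, 0 were called, where 1 of 12932 genes (0.00773%) was. At an unadjusted p under 0.05, 7 were higher with JOA (FCN1, ITGAM, CD93, PADI4, S100A9, ITGAX and CD36), against 8.2% of all genes, and 0 were lower, against 2.43% of all. With median-ratio scaling this was 5 higher and 1 lower, and the split over all genes was 593 higher and 591 lower, against 1061 and 314 as deposited. Groups did not overlap for 11 higher and 2 lower markers, against 32.5% and 11% of all genes. The log2 change was above 0 for 18 of 24, against 66.2% of all genes, with a median of 0.24, against 0.08 over all. Median-ratio scaling moved these medians to 0.17 and -0.0048.

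**Figure D4:**
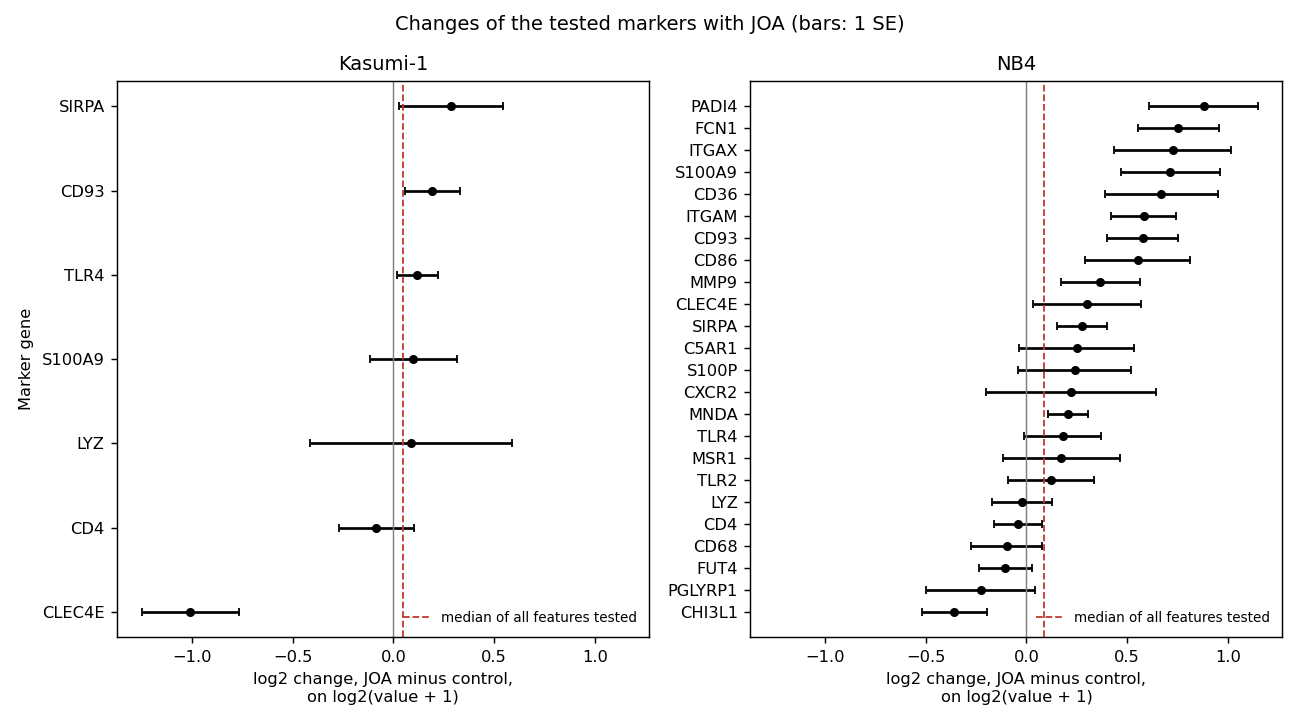
Points are the log2 change of each tested marker, JOA minus control on log2(value + 1), in Kasumi-1 (left) and NB4 (right), with bars of 1 SE; the dashed line is the median of all features tested, 0.05 in Kasumi-1 and 0.08 in NB4. CLEC4E lies at -1.01 in Kasumi-1 and at 0.30 in NB4, and the 7 NB4 markers at the top lie between 0.58 and 0.88.

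Markers of other lineages were also read, and none was called in NB4. Sums that lay higher in both JOA libraries stand beside 32.5% of all single NB4 genes that did so, and the erythroid sums overlapped. The 7 T and NK cell markers summed to 42.9 to 58.1 TPM with JOA, against 38.7 to 41.8 TPM in control, of which CD3D was higher and CD8A lower at an unadjusted p under 0.05 (with median-ratio scaling, 0 higher and 1 lower). The B cell markers, 4 of 5 listed, summed to 24.2 to 25.0 TPM with JOA, against 19.6 to 19.7 TPM in control. The 6 epithelial and fibroblast markers summed to 53.5 to 55.3 TPM with JOA, against 38.6 to 39.8 TPM in control, mostly from the keratins KRT8 and KRT18. Erythroid markers summed to 0.513 to 1.07 TPM with JOA, against 0.783 to 1.15 TPM in control, with AHSP and EPB42 at 0, and megakaryocyte markers to 4.97 to 5.08 TPM with JOA, against 3.65 to 4.91 TPM in control, with PPBP at 0. In Kasumi-1 the T and NK cell markers, 2 of 7 with a row, summed to 1.44 to 1.99 FPKM with JOA, against 2.14 to 2.78 FPKM in control. Nearly all of this was CD8A (log2 change -0.38, unadjusted p = 0.0179, adjusted p = 0.216 in limma). Of all single Kasumi-1 features, 7.1% lay lower in every JOA library. The B cell markers there summed to 2.58 to 3.33 FPKM with JOA, against 2.20 to 3.55 FPKM in control. The single epithelial marker with a Kasumi-1 row was at 33.1 to 43.3 FPKM with JOA, against 35.5 to 44.4 FPKM in control, and megakaryocyte markers summed to 1.09 to 1.46 FPKM with JOA, against 1.17 to 1.78 FPKM in control. Erythroid markers summed to at most 0.155 FPKM there. Their part in the marker results was not tested.

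NB4 values can be split into annotated transcripts. The markers had 147 transcripts listed, of which 43 reached the level for testing and 0 were called, as 0 of all 51643 transcripts were in limma, where 3469 had an unadjusted p under 0.05. Among the 43, 8 were higher with JOA at an unadjusted p under 0.05, against 4.19% of all transcripts, and 0 were lower, against 2.53% of all. The 8 are not independent, as ITGAM-201, ITGAM-202 and ITGAM-203 are among them. PADI4-204, also among them, was tested only through its JOA libraries, so its direction was set by the filter. It was at 1.61 and 1.97 TPM with JOA, against 0.784 and 0.386 TPM in control. For ITGAM the coding transcript ITGAM-202 was at 5.02 and 6.01 TPM with JOA, against 2.64 and 3.02 TPM in control (unadjusted p = 0.0171, adjusted p = 0.731 in limma). Transcripts annotated as retained introns held 56.4% and 56.9% of the ITGAM TPM with JOA, against 51.9% and 58.0% in control, so in every library they held more of the ITGAM level than its coding transcripts did. FCN1 was carried by FCN1-201, at 10.3 and 13.5 TPM with JOA, against 5.51 and 8.04 TPM in control.

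Other markers split unevenly between libraries. SIRPA-201 was at 13.4 and 20.2 TPM with JOA, against 7.69 and 18.2 TPM in control, and SIRPA-202 at 14.02 and 6.97 TPM with JOA, against 13.2 and 5.02 TPM in control. In both groups library 1 had less SIRPA-201 and more SIRPA-202 than library 2, while the sum of SIRPA differed little between libraries of a group. The MSR1 level came to 64.5% and 56.8% from processed transcripts with JOA, against 34.5% and 19.6% in control. PADI4 came mainly from processed transcripts, at 75.3% and 88.1% with JOA, against 80.2% in each control library.

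**Figure D5:**
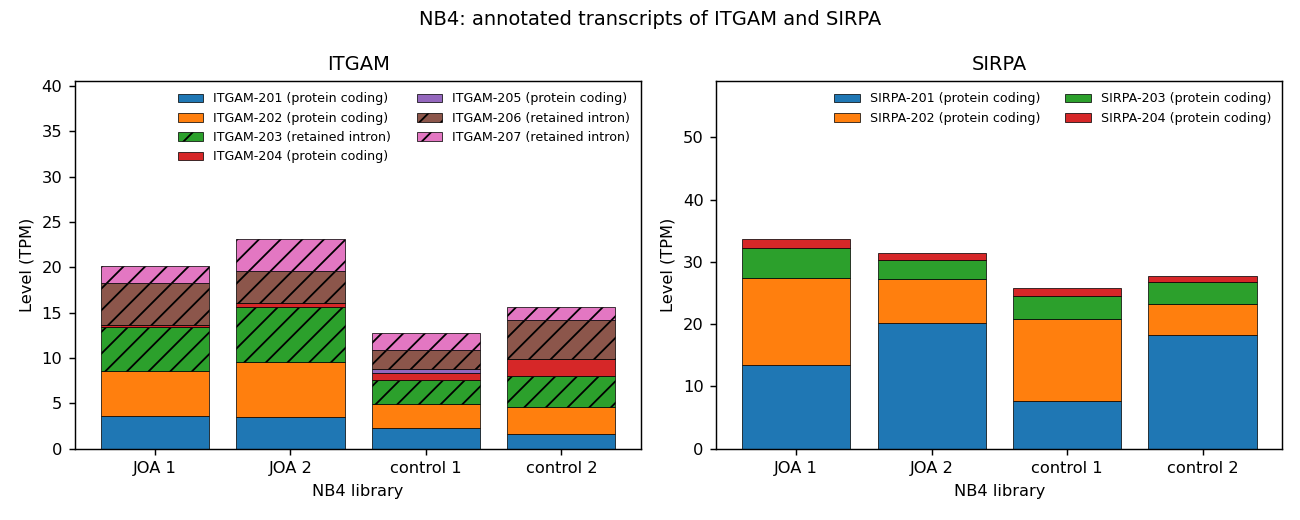
Stacked bars give the TPM of each annotated transcript of ITGAM (left) and SIRPA (right) in the 4 NB4 libraries, with JOA on the left, and hatching marks transcripts annotated as retained introns. The hatched part of ITGAM is between 51.9% and 58.0% of every bar, and SIRPA-201 is the larger part in both libraries numbered 2.

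The JOA response was compared between the lines as the change in Kasumi-1 minus the change in NB4, in a single limma fit over 7261 genes with a symbol in both tables. It called 14 genes (0.193%), and 0 of the 16 markers it could test. An unadjusted p under 0.05 was reached by 4 of the 16 (CLEC4E, PADI4, ITGAM and ITGAX), against 11.7% of all genes. CLEC4E was tested in both lines, and its difference was -1.31 (SE 0.34, adjusted p = 0.212). PADI4, ITGAM and ITGAX entered the fit through NB4 alone and averaged 0.0764 to 0.400 FPKM in the Kasumi-1 groups, on at most 38 reads per library. At such levels the added 1 holds the Kasumi-1 change near 0 whatever the ratio, so the differences of these 3 genes are given as values and no lower response is read from them. ITGAX had a JOA to control ratio of means of 2.03 in Kasumi-1 and 1.99 in NB4, and a fitted difference of -0.62 (SE 0.27, adjusted p = 0.404), which was -0.40 (unadjusted p = 0.435) with 0.1 added in place of 1. ITGAM had ratios of 1.35 and 1.53 and a difference of -0.54 (SE 0.17, adjusted p = 0.270), which was -0.38 (unadjusted p = 0.302) with 0.1 added. PADI4 had ratios of 0.486 and 2.49, and its difference of -1.09 (SE 0.27, adjusted p = 0.188) was -1.86 (adjusted p = 0.337) with 0.1 added. Without NB4 JOA 1, limma called ITGAX (adjusted p = 0.0214) and PADI4 (adjusted p = 0.0372), under the same limit, and with all libraries neither was called.

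Other genes of mature phagocytes were read in the same way, from a list of 40. In NB4, 28 were tested, 0 were called, 11 were higher with JOA at an unadjusted p under 0.05 and 0 were lower, against 8.2% and 2.43% of all genes. With median-ratio scaling, under which the split over all genes was nearly even, 10 were higher and 1 lower. FCER1G, the common signalling chain of Fc receptors, was at 55.3 and 62.5 TPM with JOA, against 29.3 and 28.5 TPM in control (log2 change 1.00, SE 0.12, adjusted p = 0.0934 in limma, 0.0130 with the variance shared over both lines). In Kasumi-1, 10 of the 40 were tested and 0 called, with PSAP and CSF1R higher and FCER1G and CSTA lower at an unadjusted p under 0.05, and the block fit called PSAP (adjusted p = 0.0451), which was higher. FCER1G there was at 1.37, 1.04 and 0.687 FPKM with JOA, against 2.06, 1.78 and 2.20 FPKM in control, so every JOA library was lower in Kasumi-1 and higher in NB4.

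A list drawn up for primary granule genes of the promyelocyte stage was read in NB4 in the same way. Not every gene on it, NKG7 among them, is particular to primary granules. Of 11 tested, 6 were lower and 1, NKG7, higher with JOA at an unadjusted p under 0.05, against 2.43% and 8.2% of all genes, and 0 were called in limma without a block. With median-ratio scaling, 8 were lower and 1 higher. ELANE, 1 of the 6, was tested only through its control libraries (0.409 and 0.0786 TPM with JOA, against 1.00 and 1.59 TPM in control), so its direction was set by the filter. PRTN3, which encodes proteinase 3, was at 41.9 and 41.0 TPM with JOA, against 141 and 257 TPM in control (log2 change -2.17, SE 0.24, adjusted p = 0.0934). Myeloperoxidase was at 5886 and 4679 TPM with JOA, against 7983 and 7693 TPM in control (adjusted p = 0.276). In Kasumi-1, 4 were tested, with PRSS57 lower and SRGN higher at an unadjusted p under 0.05, and the block fit called SRGN (adjusted p = 0.0400) and not PRSS57 (adjusted p = 0.0517). Of 12 myeloid transcription factors, 6 were tested in Kasumi-1, and CEBPB and EGR1 were higher there at an unadjusted p under 0.05 (adjusted p = 0.116 each in limma, 0.0323 and 0.0263 with the block). All 12 were tested in NB4, and 0 had an unadjusted p under 0.05, or 2, both lower, with median-ratio scaling.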

How the data were processed

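Per the labels' protocols, Trizol RNA went into a TruSeq stranded mRNA preparation. Tools listed in the submitters' processing notes are HISAT2, HTSeq, Trimmomatic and Cufflinks, on the build hg38; no version or role is given. The authors deposited FPKM values for Kasumi-1, per the deposited table's name. The NB4 table that the authors deposited carries FPKM in its name, yet its columns add up to 999679 to 999758, close to 1000000, and its values were treated as TPM.

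Kasumi-1 rows (29053, of which 10906 or 37.5%, holding 45.8% of the FPKM, could be matched) were matched to symbols through their sequence records. NB4 transcripts (121005, of which 93.9% matched) were summed to genes. FPKM steps gave whole reads within a tolerance of 0.01 of a read in 100% of 9311 low rows and in 12130 of 12130 rows at the filter. NB4 depth is unknown.

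Each line was fitted with limma 3.58.1 in R 4.3.3 on log2(value + 1) with a variance trend, after a filter at 1 in 3 libraries of Kasumi-1 or 2 of NB4, with Benjamini-Hochberg adjustment. The fits were also run on simulated data. That simulation drew independent noise with no shared deviation by library number, so no support for the fits is taken from it. In Kasumi-1 same-numbered libraries deviated together (correlations 0.330, 0.500 and 0.424, all other pairs at -0.06 or below), so fits blocked on that number are quoted where they change a call. This pairing comes from the values and not from a label. Deviations were taken from each group's own mean, so the negative values of the other pairs are no separate evidence for it. Alternatives were other pseudocounts, filters and scalings, the block, a shared variance, leaving out libraries, and voom on recovered reads. The voom fits and the block fits without each pair were chosen after seeing the data.

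All 48 markers were accounted for, with values in every library where a group mean reached 5 or a marker was called by some fit; other markers named with values were chosen after these were seen. Sequences came from 1 role group with at least 2 tested members. The members and lists were chosen with earlier results of these data known. The values of some genes of another list are not reported here.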

Additional observations from a re-analysis of the deposited data

How the results depend on the processing

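The 7 tested Kasumi-1 markers, the 24 in NB4 and the 4 differences between lines kept their direction in 201 of 201 alternatives other than leaving out libraries, and 6 of these newly passed the threshold. Without 1 library or pair, 20 of 199 values turned sign, all with a main log2 change of at most 0.25 in size. Those ranged in Kasumi-1 from -0.28 to 0.03 (CD4, 0.00998 without pair 3 and 0.032 without control 1), -0.37 to 0.56 (LYZ) and -0.078 to 0.32 (S100A9, -0.033 without pair 3). In NB4 they ranged from -0.11 to 0.031 (CD4), -0.22 to 0.027 (CD68), -0.16 to 0.11 (LYZ), -0.080 to 0.58 (C5AR1), -0.41 to 0.85 (CXCR2), -0.26 to 0.61 (MSR1), -0.51 to 0.057 (PGLYRP1), -0.23 to 0.71 (S100P) and -0.057 to 0.30 (TLR2). Calls over all Kasumi-1 features went from 0 to 985 with the replicate block (2 markers), 4 with shared variance and 3036 in voom with the block (3 markers, with SIRPA), and were 0 to 1 without a library or pair, the 1 without JOA 2. NB4 had 1 call, against 157 with the replicate block (0 markers), 156 with shared variance (1 marker), 10 with a filter at 5, and 0 with a pseudocount of 0.1, no filter, median-ratio scaling or any library left out. NB4 numbers correlated at 0.066 in only 2 pairs and were not taken as pairs; among the other lists that block called PRTN3, CTSG and MPO lower and FCER1G higher. The difference between lines had 14 calls, against 36 with the replicate block, 2 with a pseudocount of 0.1, 1 with tables rescaled to 1000000, and 2 to 111 without a library, where 0 to 2 markers were called, the 2 without NB4 JOA 1. The cause of these shifts was not tested. NB4 has 2 libraries a group and an unknown depth, and the 18 Kasumi-1 markers with a row that were not tested rest on few reads.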
